A study of Mus musculus with 2 samples.

Results

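Cytoplasmic ribosomal protein genes encode the proteins that, with ribosomal RNA, build the small and large subunits of the ribosome outside mitochondria. Members were taken by symbol: Rps or Rpl followed by a number and at most a short suffix, plus Rpsa, Rplp0, Rplp1 and Rplp2, without pseudogene rows and with at least 50 unique molecular identifiers (UMIs, counted mRNA molecules) over both libraries. Of 27998 genes, 84 symbols fitted the pattern and 82 reached the minimum, 32 of the small and 50 of the large subunit. Rpl39l with 32 UMIs fell just outside, Rpl10l had 0 UMIs, and Rpl3l with 238 lay just inside. All 82 were placed in the GENCODE M21 annotation of GRCm38 (mm10). It lists Rpl6l as a processed pseudogene and the other 81 as protein-coding. Fau and Gnb2l1 (Rack1), whose products also sit on the ribosome, have other symbols and were kept apart.

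The cells were CD45+ CD11b+ live cells that had been sorted out of mouse pleural fluid, taken 10 days after 150000 LLC cells, a mouse lung carcinoma line, had been put into the pleural space in 100 µl of saline. CD45 marks blood-derived cells and CD11b mostly myeloid cells, and malignant pleural effusion is the fluid that forms around the lung when tumour grows there. Both libraries carry these same labels, made with a droplet kit that tags the 3′ ends of mRNAs, so the comparisons are between cell classes within them. Strain, age and sex are not in the labels used here, and nothing in them says that the libraries came from separate mice. The p-values weigh each difference between classes against how far such differences disagree between these libraries, a spread pooled over classes and partly over genes. That disagreement may be technical.

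The libraries differed in depth and content. Library 1 held 1141 cell barcodes with a median of 9894 UMIs and none under 1999, and library 2 held 2908 with a median of 1954.5 and none under 500. After filters, 1116 and 2847 cells remained, and 4 barcodes occurred in both libraries. Library 2 also holds counts of a pair of antibody tags, BC2 and BC3, whose meaning the labels do not give. Of its neutrophil-gated cells, 1497 had more BC3 and 32 had more BC2 counts, whereas 522 of its macrophage-gated cells were on the BC2 side and 12 on the BC3 side. Tag and class therefore overlap strongly there.

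Ribosomal proteins are made in nearly equal numbers, because each ribosome holds a single copy of most of them, and their mRNAs are among the most abundant in growing cells. Transcription of these genes starts within a run of pyrimidines (C and T), and the mRNAs carry this run at their 5′ end, where it lets growth signals through mTOR switch their translation on and off together. Neutrophils leave the bone marrow as non-dividing cells with compact nuclei and ready-made granules, macrophages and dendritic cells go on making protein in tissue, and resting lymphocytes hold little cytoplasm. Several members have a close relative (Rps27 and Rps27l, Rpl3 and Rpl3l, Rpl22 and Rpl22l1).

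The start-site windows of the members on which the results turn show what the genes share and where they differ. RefSeq promoters (GRCm38.p6) were at hand for 61 of the 82 members, and each window of 40 bases runs from 25 before the start to 15 from it, on the gene's own strand. Capitals mark the pyrimidine word CTTTC, chosen after the sequences had been seen. Rps27 and Rps9 are shown as members that stood high against the set in neutrophil-gated cells, Rps18 and Rpl12 as members that stood lowest, Rpsa for dendritic-gated cells, and Rps27l and Rpl3l as relatives with their own pattern.
Rps27, chr3:90213634-90213673, minus strand: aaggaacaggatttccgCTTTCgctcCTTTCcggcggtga
Rps9, chr7:3704016-3704055, plus strand: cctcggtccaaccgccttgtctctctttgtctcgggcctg
Rps18, chr17:33955651-33955690, minus strand: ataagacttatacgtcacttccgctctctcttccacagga
Rpl12, chr2:32961687-32961726, plus strand: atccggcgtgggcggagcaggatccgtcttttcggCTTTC
Rpsa, chr9:120127741-120127780, plus strand: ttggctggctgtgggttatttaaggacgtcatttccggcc
Rps27l, chr9:66946061-66946100, plus strand: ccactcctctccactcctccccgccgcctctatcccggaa
Rpl3l, chr17:24727801-24727840, plus strand: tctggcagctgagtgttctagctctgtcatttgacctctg

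A gene was counted if any of its windows held the word. The word stood on the gene's strand in 18 of the 61 members (29.5%) and in 6.48% of all 27025 genes with a promoter. On the other strand it stood in 4 members (6.56%) and in 5.57% of all genes. Of 69 mitochondrial ribosomal protein genes, which serve the ribosome inside mitochondria, 5 had it on the gene's strand (7.25%). Rps27 carries the word in 2 places and Rpl12 in 1. The windows of Rps9, Rps18, Rpsa, Rps27l and Rpl3l do not hold these letters. Rps27l and Rpl3l each have another window, not shown, that does not hold them either.

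Cells were put into classes by their UMIs for marker lists that hold no ribosomal gene, so each class is a range of a marker count and not a proven cell type. Macrophage-gated cells carried complement C1q genes, 70.5 and 46.6 C1qa, C1qb and C1qc UMIs per 10000 in libraries 1 and 2, against 0.983 and 1.25 in neutrophil-gated cells. The neutrophil list, led by S100a8 and S100a9, gave 2133 and 1436 UMIs per 10000 in its own class and 15.7 and 12.1 in macrophage-gated cells. The median neutrophil-gated cell held 0 C1q UMIs and 8 and 7 UMIs of the monocyte list. Between 100 and 400 neutrophil-list UMIs per 10000, around the threshold of 200, lay 25 cells of library 1 and 268 of library 2. For the C1q threshold of 10, 71 and 406 cells lay between 5 and 20. No class was given to 209 and 180 cells. Cells over the monocyte threshold of 50 but no other fell there if their C1q lay between 2 and 10. Those without a class carried 40.9 and 102 monocyte-list UMIs per 10000. Over the monocyte threshold lay 497 and 1888 cells, 279 and 425 of them in the monocyte class. Passing it besides another gate did not exclude a cell. Left out were 13 and 62 cells that passed several other gates, large resident macrophage with C1q excepted.

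The share of UMIs that came from ribosomal protein genes differed several-fold between classes. Neutrophil-gated cells had the smallest summed share, 6.44% ± 1.14 (mean ± SD, n = 2 libraries), and B-gated cells the largest, 36.9% ± 2.29. Macrophage-gated cells (16.6% ± 0.613), large resident macrophage-gated cells (17.2% ± 0.146) and monocyte-gated cells (16.7% ± 1.68) lay close together. Dendritic-gated cells had 20.1% ± 2.74 and T/NK-gated cells 26.4% ± 4.13. The T/NK value of library 1 rests on 3 cells, with a summed share of 29.4% and a median over cells of 47.3%. That median lay above the B-gated median of 38.3%, whereas in library 2 the T/NK median was 23.4% (42 cells) and the B-gated median 36.6%. A share summed over the members is given without a p-value. The intervals below cover counting error only.

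By library, neutrophil-gated cells had 7.25% (79 cells of library 1) and 5.63% (1529 cells of library 2), and macrophage-gated cells 17.1% (335) and 16.2% (534). The ranges did not overlap: the macrophage share was 2.35-fold and 2.87-fold the neutrophil share. Per cell the gap was steadier, with medians of 5.17% and 4.87% in neutrophil-gated cells and a macrophage median 3.24-fold and 3.22-fold as high. A median neutrophil-gated cell held 123 and 64 ribosomal protein UMIs and a median macrophage-gated cell 1931 and 2249, 15.7-fold and 35.1-fold as many. S100a8 and S100a9, which encode the calcium-binding proteins that fill the neutrophil cytoplasm, alone took 18.0% and 12.8% of neutrophil UMIs. With both left out of the total, the neutrophil share was 8.84% and 6.46%. Mitochondrial genes took 0.591% and 0.471% of UMIs there and 1.63% and 1.67% in macrophage-gated cells.

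**Figure D1:**
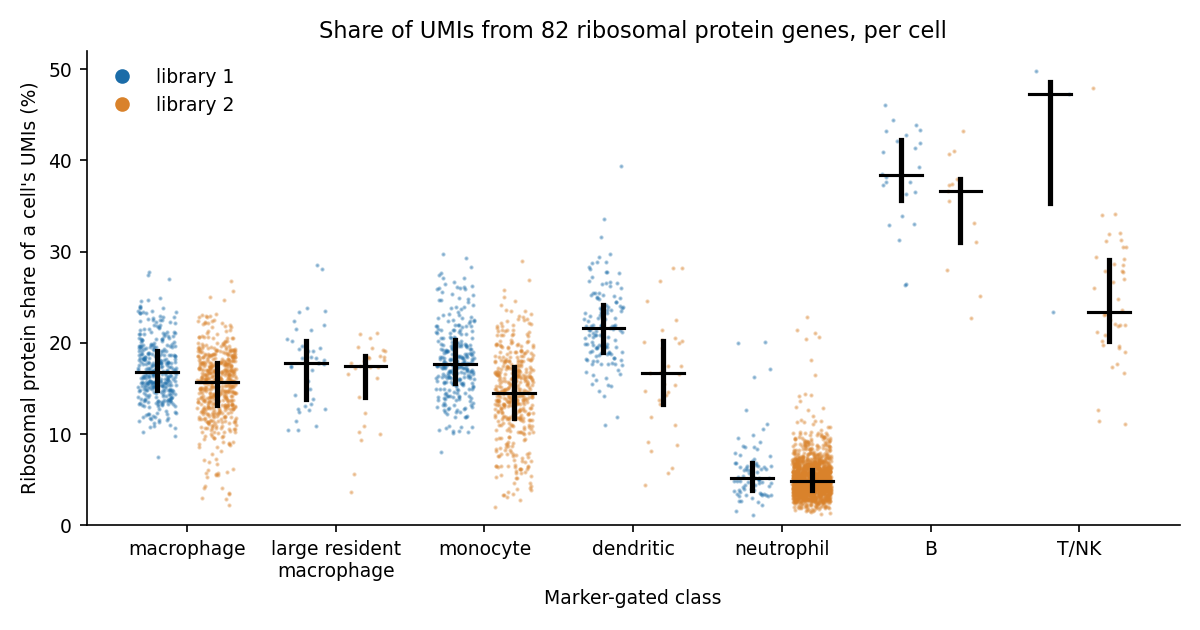
Each point is 1 cell, placed by its marker-gated class (x axis) and the percentage of its UMIs from the 82 ribosomal protein genes (y axis), blue for library 1 and orange for library 2. Black lines give the median and the quartiles. Most neutrophil-gated cells lie below the macrophage quartiles, with medians of 5.17% and 4.87%, and the B-gated cells lie above the macrophage quartiles, with medians of 38.3% and 36.6%.

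A few large cells moved the neutrophil sum. Only 5 neutrophil-gated cells of library 1 and 21 of library 2 had over 5000 UMIs, yet they held 15.7% and 8.43% of the class's UMIs. Their share was 17.1% and 13.8%, and without them that of the class was 5.42% and 4.89%. These cells carried 125 and 145 monocyte-list UMIs per 10000, against 57.2 and 65.3 in the whole class. The part of these transcripts in the result was not tested. On the BC2 side of library 2, where 10 of the 32 neutrophil-gated cells were of this size, the summed share was 13.8% and the median over cells 5.73%. In library 2 the share of smaller neutrophil-gated cells was lower in deeper ones, at 5.65% in the 355 neutrophil-gated cells with 500 to 1000 UMIs, 4.89% in 929 with 1000 to 2000 and 4.50% in 224 with 2000 to 5000. Across all neutrophil-gated cells, large ones included, Spearman's rho between share and UMIs had opposite signs, 0.31 in library 1 (79 cells) and -0.24 in library 2 (1529 cells), a description over cells of a shared library.

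Shallow cells had a lower share among monocyte-gated cells of library 2. Those with 500 to 1000 UMIs (26 cells) had 6.76% and those with 1000 to 2000 (26 cells) 6.72%. Deeper ones had 14.6% at 2000 to 5000 UMIs (25 cells), 15.2% at 5000 to 10000 (163 cells) and 15.7% at 10000 to 20000 (166 cells). The shallow cells thus held a share close to that of neutrophil-gated cells. Macrophage-gated cells of the same library ran from 13.98% at 2000 to 5000 UMIs (24 cells) to 17.0% above 20000 (172 cells).

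Most members were lower in neutrophil-gated than in macrophage-gated cells when UMIs were summed per class and library and scaled by TMM, which sets the bulk of genes level. By edgeR's quasi-likelihood test with Benjamini-Hochberg adjustment at 0.05, 71 of 82 members were lower and 3 higher. Of all 9424 genes tested, 56.3% were called, 29.6% lower and 26.8% higher. The members' median log2 difference was -1.07 (quartiles -1.49 to -0.73), beside -0.20 over all genes, and all 82 had the same sign in both libraries. The subunits had near-equal medians, -1.10 for the 32 small-subunit and -1.06 for the 50 large-subunit members. With library 2 limited to its BC2 side, 0 of 82 were called by edgeR (unadjusted p under 0.05 for 15). Over all genes, calls there also fell, to 566 of 9155. The dendritic and large resident macrophage classes did not enter that fit, and DESeq2 was not run on that subset. Once the cells over 5000 UMIs were also left out (an alternative added after the data were seen) 79 were lower and 1 higher. There 2588 of all 9063 genes were called in either direction, and the median over all genes was itself -1.09.

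Rps27, Rps9 and Rpl3l were the 3 members called higher. Rps27 encodes a small zinc-finger protein of the small subunit. It gave 3046 and 3123 CPM (UMIs scaled to 1000000 per class and library) in macrophage-gated and 4285 and 3595 in neutrophil-gated cells of libraries 1 and 2. Rps9, a small-subunit protein that helps keep decoding accurate, gave 2678 and 3042 in macrophage-gated and 3887 and 3286 in neutrophil-gated cells. Neither pair of ranges overlapped, and for both genes neutrophil-gated cells stood above macrophage-gated cells in each library. The TMM factors were 0.831 and 0.700 for neutrophil-gated and 1.04 and 1.11 for macrophage-gated sums of libraries 1 and 2. TMM scaling therefore makes the rise larger than in CPM. The TMM-scaled log2 difference was 0.85 ± 0.22 (SE; adjusted p = 0.0028 by edgeR's quasi-likelihood test) for Rps27 and 0.82 ± 0.21 (adjusted p = 0.0029) for Rps9. These calls on the TMM scale were lost in library 2's BC2 side, where the differences were 0.51 and 0.59 with all neutrophil-gated cells and 0.18 and 0.17 without those over 5000 UMIs (adjusted p = 0.41, 0.34, 0.49 and 0.51 by edgeR).

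Rps18 shows the other side. This small-subunit protein gave 3317 and 2825 CPM in macrophage-gated cells and 654 and 350 in neutrophil-gated cells. Rpl3, which lines the peptide-joining centre of the large subunit, gave 1659 and 1576 against 275 and 218. Rpl10a, a large-subunit protein of the stalk where spent tRNAs leave, gave 1276 and 1208 against 211 and 177. All 3 were far lower in neutrophil-gated cells of both libraries, with TMM-scaled log2 differences of -2.19 for Rps18, -2.22 for Rpl3 and -2.16 for Rpl10a.

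**Figure D2:**
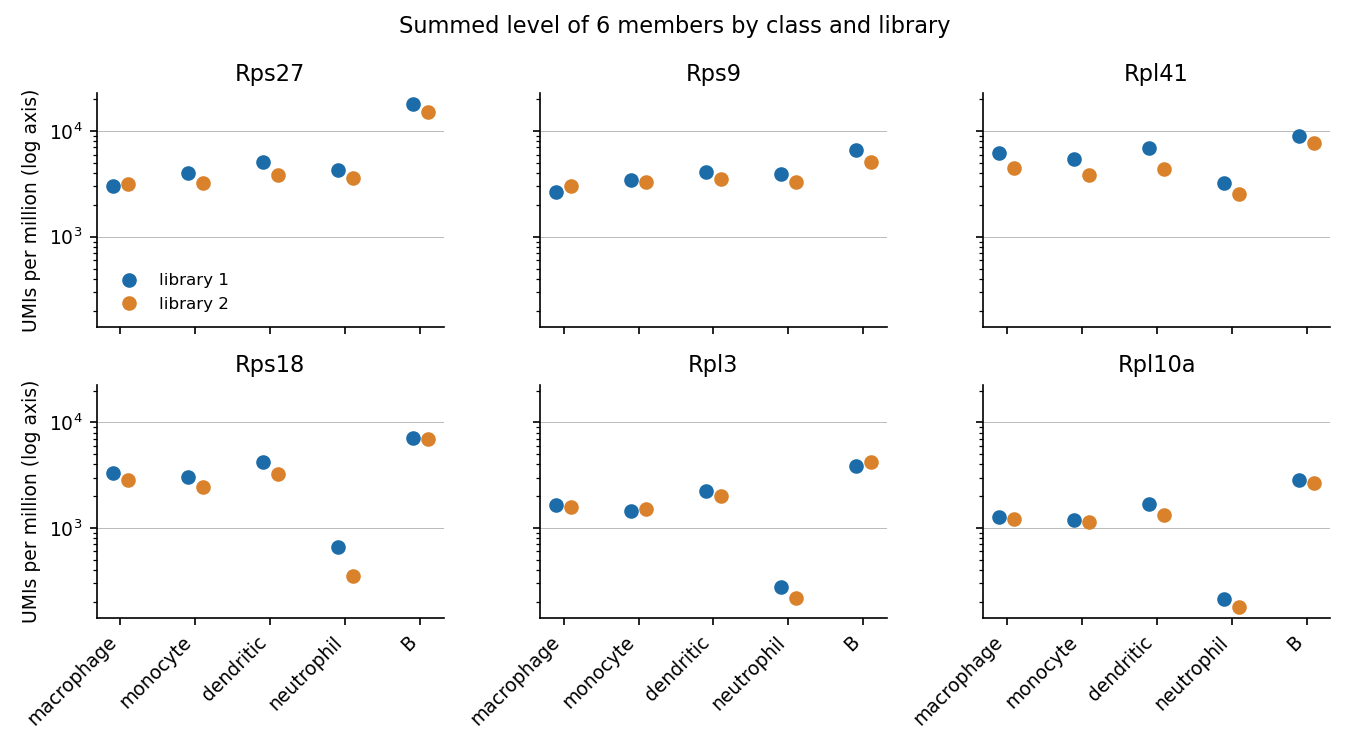
CPM in 5 marker-gated classes (x axis) for 6 members, on a log y axis, with 1 point per library (blue library 1, orange library 2). Rps27 and Rps9 lie above their macrophage points in neutrophil-gated cells, Rps18, Rpl3 and Rpl10a lie far below theirs in both libraries, and these 5 are highest in B-gated cells.

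To see single members apart from the fall of the whole, the same test was run with the summed ribosomal protein UMIs as library size. A value of 0 then means moving with the sum of the set. Of the 82 members, 11 stood higher and 28 lower in neutrophil-gated cells. On this scale 55.4% of all 9424 genes were called, 43.9% higher and 11.5% lower, with a median over all genes of 0.63. The split moved with what stood for the set: when TMM factors over the members alone replaced their sum, 18 were higher and 21 lower. The median of the 82 differences was -0.20, below 0, with quartiles of -0.62 and 0.14. Of the 82, 27 were positive, and 73 had the same sign in both libraries.

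Rpl3l, Rps27, Rps9, Rpl37 and Rpl41 were among the members that stood highest. Rps27 took 1.79% and 1.93% of ribosomal protein UMIs in macrophage-gated and 5.91% and 6.38% in neutrophil-gated cells, a log2 difference of 1.73 ± 0.16 (SE; adjusted p = 9.5e-09, edgeR's quasi-likelihood test), 1.73 in each library. Rps9 took 1.57% and 1.88% against 5.36% and 5.83%, a difference of 1.70 ± 0.16 (adjusted p = 1.1e-08). Together they were the top pair of members in neutrophil-gated cells of both libraries, whereas Rpl41 and Rps29 led in macrophage-gated cells. Rpl37 and Rpl41 of the large subunit stood at 0.60 and 0.51 on the log2 scale. They stood above the set only: on the TMM scale their differences from macrophage-gated cells were -0.28 and -0.36, neither of them called. The 10 most abundant members held 34.0% and 35.5% of ribosomal protein UMIs in neutrophil-gated cells and 23.2% and 23.1% in macrophage-gated cells.

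The 6 that stood lowest were Rpl3 (-1.36 ± 0.18), Rps18 (-1.31 ± 0.18), Rpl10a (-1.29 ± 0.19), Rpl12 (-1.27 ± 0.21), Rpl36a (-1.01 ± 0.19) and Rpl4 (-0.997 ± 0.19; log2 difference ± SE, all called). Rpl12 sits at the base of the stalk that receives translation factors, and Rpl4 lines the tunnel through which the new chain leaves. Each was lower against the set in both libraries. Leaving out the neutrophil-gated cells over 5000 UMIs gave 14 higher and 32 lower members. On the BC2 side 0 were called (unadjusted p under 0.05 for 4 by edgeR), where 684 of all 9155 genes were. Without those cells there it was 8 higher and 25 lower, where 2343 of all 9063 genes were called. Rps27 and Rps9 then stood at 1.94 and 1.93 with 22 neutrophil-gated cells in library 2.

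**Figure D3:**
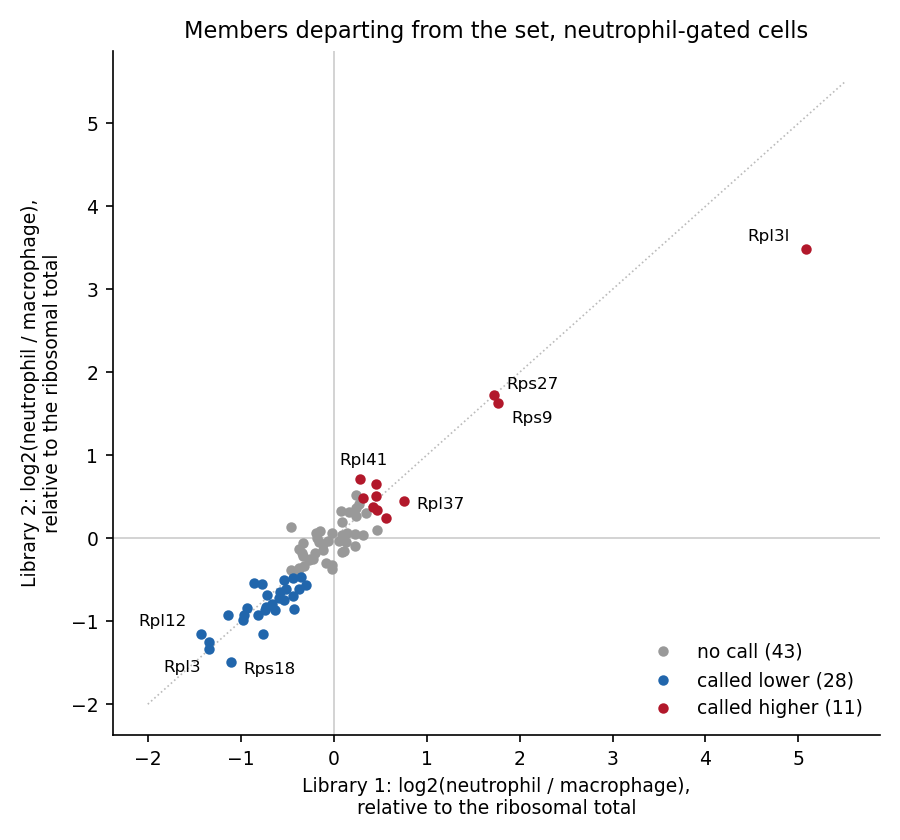
Each point is 1 of the 82 members, placed by its log2 ratio of neutrophil-gated to macrophage-gated cells relative to the ribosomal total in library 1 (x axis) and library 2 (y axis). Red and blue points passed the test as higher (11) or lower (28), grey points did not, and the dotted line marks equal values. Rps27 and Rps9 lie near 1.7 in both libraries, and Rpl3l lies apart at 5.08 and 3.49 on few UMIs.

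By role, members of the same structure did not always go together. Of the stalk proteins, which recruit elongation factors, Rplp0 stood lower (-0.57, adjusted p = 0.0059) and Rplp2 higher (0.48, adjusted p = 0.015) relative to the set by edgeR's quasi-likelihood test, and Rplp1 was not called at -0.25. Rpsa, which is also known as a laminin-binding protein, stood at -0.88 (adjusted p = 0.00028), Rps19, mutated in an inherited anaemia, at -0.98 (adjusted p = 2.7e-05) and Rps4x, encoded on the X chromosome, at -0.81 (adjusted p = 0.00040). Rpl5 and Rpl11 join the 5S RNA in a particle that can bind Mdm2: Rpl5 stood at -0.60 (adjusted p = 0.017), and Rpl11 was not called at -0.25. Rps6, the classic target of S6 kinase, was not called at -0.24. Rps14 at 0.28, Rpl38 at -0.09, Rpl39 at 0.21 and Rpl10 at -0.27 were not called either.

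Members that stood lower had longer coding sequences at the median, in widely overlapping groups. The longest annotated coding sequence had a median of 618 bases in the 28 members that stood lower, 438 in the 11 higher and 444 in the 42 uncalled ones with a length. Lengths ran from 207 to 1257 bases among the lower and from 138 to 1221 among the higher. Across 81 members, Spearman's rho between coding length and the log2 difference was -0.26 in library 1 and -0.31 in library 2, and across 9169 tested genes 0.13 and 0.07. These points share libraries and 3′ counting, and genes are not independent replicates. Of members with a promoter, the word CTTTC stood in 2 of 9 higher, 8 of 21 lower and 8 of 31 uncalled ones.

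Rpl3l, a relative of Rpl3 known from heart and skeletal muscle, had the largest relative difference on the thinnest counts. In neutrophil-gated cells it gave 7 and 48 UMIs, 34.4 and 20.2 CPM (exact Poisson intervals 13.8 to 70.9 and 14.9 to 26.8, covering counting error only). Macrophage-gated cells had 10 and 48 UMIs, 2.44 and 5.18 CPM (1.17 to 4.48 and 3.82 to 6.87). The intervals did not overlap in either library. Relative to the set its log2 difference was 3.86 ± 0.42 (adjusted p = 1.3e-07, edgeR's quasi-likelihood test), and there were 8.0 and 10.8 Rpl3 UMIs per Rpl3l UMI, against 681 and 304 in macrophage-gated cells. Monocyte-gated cells lay between, at 12.8 and 10.1 CPM. No Rpl3l UMI was found in B-gated cells, where 3 counts would be 24.6 and 42.8 CPM. The exact Poisson intervals for 0 counts reach 30.2 and 52.6 CPM. The neutrophil level lay above that limit in library 1 (34.4 CPM) and below it in library 2 (20.2 CPM).

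Rps27 and its near-twin Rps27l, known as a p53 target, had a ratio that differed between classes. In macrophage-gated cells there were 3.96 and 4.96 Rps27 UMIs per Rps27l UMI, in large resident macrophage-gated 5.15 and 4.93, in monocyte-gated 7.06 and 6.78, and in dendritic-gated 11.2 and 7.09. Neutrophil-gated cells followed with 17.1 and 18.0. The macrophage and large resident macrophage ranges overlapped, and the monocyte and neutrophil ranges lay apart from both and from each other. B-gated cells had the highest, 146 and 96.5, on 15 and 11 Rps27l UMIs. T/NK-gated cells, 3 in library 1 and 42 in library 2, had 36.7 and 8.34. In neutrophil-gated cells Rps27l itself was not called against the set (-0.27, adjusted p = 0.29 by edgeR's quasi-likelihood test). The ratio of Rpl22 to Rpl22l1 was 1.69 and 1.39 in macrophage-gated and 2.26 and 1.96 in neutrophil-gated cells, with Rpl22l1 at -0.86 (adjusted p = 0.0022) and Rpl22 at -0.42 (adjusted p = 0.066). Rpl7 to Rpl7l1 was 10.4 and 10.3 in neutrophil-gated cells, within the range over the macrophage libraries.

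**Figure D4:**
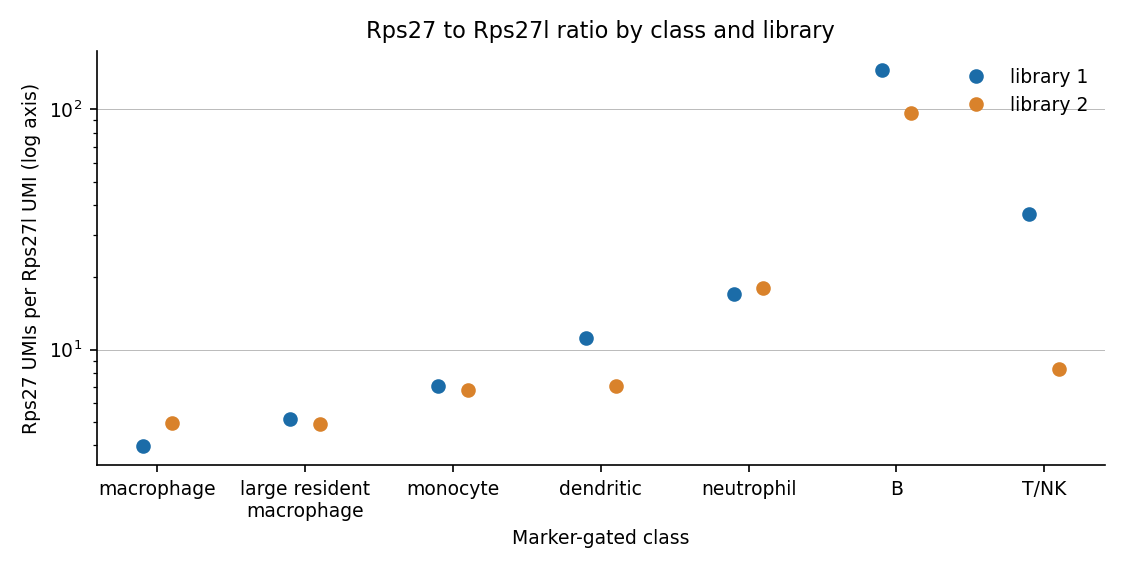
Rps27 UMIs per Rps27l UMI (log y axis) in 7 marker-gated classes (x axis), with 1 point per library (blue library 1, orange library 2). The ratio lies near 4 to 5 in both macrophage classes, near 7 in monocyte-gated cells, at 17.1 and 18.0 in neutrophil-gated cells and at 146 and 96.5 in B-gated cells.

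Near-identical copies limit which gene a read can be given to. Of 81 members measured, 67 shared at least 1 stretch of 50 bases within their last 200 with another annotated gene, and 28 with another gene of the count table. Rps9 shared 5.48% of such stretches with an annotated copy and none with a counted gene, and Rps27l, Rpl3l, Rpl12, Rpl4 and Rpl37 shared none. Rps27 shared 46.9%, all of it also found in the counted retrogene Rps27rt. Rps27rt itself gave 884 and 140 CPM in macrophage-gated cells, a gap between libraries, and the neutrophil value of Rps27 plus Rps27rt against the set was 1.78 and 1.76. Rpl36a at 100%, Rpl10a at 82.6%, Rpl3 at 77.4% and Rps18 at 72.4% share most of their ends with other annotated genes and are uncertain in that respect. With genes of the count table Rpl3 and Rpl10a shared none, Rpl36a 5.96% and Rps18 28.2%. For 48 members another gene, mostly a small nucleolar RNA, lies over the same span. Rps27 spans chr3:90212522-90213651 on the minus strand, Rps9 chr7:3703993-3706897 on the plus strand, Rpl3l chr17:24727820-24736143 and Rps27l chr9:66946086-66949516, both on the plus strand, and none of these 4 overlaps another gene.

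Other parts of the translation machinery were also lower in neutrophil-gated cells on the TMM scale, beside 29.6% lower and 26.8% higher over all genes. The elongation list of 14 genes, which holds elongation and poly(A)-binding factors besides Tpt1, Naca, Btf3, Nap1l1 and Npm1, counted 11 lower and 0 higher. In it Eef1a1, which brings aminoacyl-tRNA to the ribosome, stood at -1.44 and Eef2, which moves the ribosome along, at -1.22. Ribosome biogenesis genes counted 23 lower and 0 higher of 25, with Nolc1 at -3.43 and Fbl, which methylates ribosomal RNA, at -2.41. Mitochondrial ribosomal protein genes counted 55 lower and 4 higher of 76. Initiation factors counted 22 lower and 2 higher of 28, and the pair that was higher was Eif1 (1.67) and Eif4a2 (1.47). Relative to the ribosomal total, where 11.5% of all genes were lower and 43.9% higher, the splits were 5 lower and 2 higher (elongation), 17 and 1 (biogenesis), 25 and 10 (mitochondrial) and 8 and 4 (initiation). Of 11 regulators on the TMM scale, 4 were higher (Eif4ebp1 at 1.35, Mdm2 at 1.42, Maf1 at 1.18, Rptor at 1.89) and 3 lower (Myc at -3.13, Larp1 at -1.53, Trp53 at -1.28). Of the ribosome's other proteins, Fau was higher (0.98 in each library, adjusted p = 0.00064 by edgeR's quasi-likelihood test) and Gnb2l1 (-1.78) was lower. Like Rps27 and Rps9, Fau was above macrophage level in both libraries. It gave 3757 and 3536 CPM in macrophage-gated and 5897 and 4397 in neutrophil-gated cells. TMM scaling made its rise larger than in CPM too.

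Dendritic-gated cells, compared with the same macrophage-gated cells, had a larger ribosomal protein share in both libraries. The share was 22.0% in library 1 (133 cells) and 18.1% in library 2 (33 cells), 1.29-fold and 1.12-fold the macrophage share. The class was not alike in both: Ccr7, a marker of migrating dendritic cells, gave 102 and 535 CPM and Cd209a 179 and 91.1. On the TMM scale 9 of 82 members were higher and 0 lower, where 12.4% of all genes were higher and 10.3% lower. The members' median was 0.36, beside -0.02 over all genes, and it was 0.53 in library 1 and 0.12 in library 2. The call count moved with the processing, from 1 without the library block to 32 with DESeq2.

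Rpsa was called on both scales. It gave 1273 and 1288 CPM in macrophage-gated cells and 2461 and 2077 in dendritic-gated cells. Dendritic-gated cells were above macrophage-gated cells in both libraries, and the ranges did not overlap. Relative to the ribosomal total, where 7.83% of all genes were higher and 23.5% lower, 2 of 82 members were called higher and 1 lower, and Rpsa stood at 0.56 ± 0.17 (adjusted p = 0.016, edgeR's quasi-likelihood test). Rps27l was the only member called lower, at -0.76 ± 0.20 (adjusted p = 0.0073), with -1.13 in library 1 and -0.38 in library 2, and it was not called on the TMM scale (-0.43, adjusted p = 0.15 by edgeR). Without the library block 0 of the 3 were called, with an adjusted p of 0.092 for Rpsa and 0.087 for Rps27l by edgeR. Rps4x at 0.43 (adjusted p = 0.052) missed the threshold. All contrasts share the macrophage-gated cells, so their values are not independent of each other.

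Monocyte-gated and large resident macrophage-gated cells had no member called against macrophage-gated cells by edgeR. Among monocyte-gated cells 0 of 82 members were called on either scale, where 0.658% of all genes were called on the TMM scale (0.233% higher, 0.424% lower) and 0.626% relative to the set (0.276% higher, 0.35% lower). Unadjusted p was under 0.05 for 1 and 2 members, and DESeq2 called 0 and 0. Rpl3l had the largest difference, 1.45 relative to the set (adjusted p = 0.098, edgeR's quasi-likelihood test), and Rps27l stood at -0.42 (adjusted p = 0.62). Among large resident macrophage-gated cells, marked by genes such as Alox15 and Prg4, 0 members were called, where 8.43% of all genes were on the TMM scale (5.94% higher, 2.48% lower) and 8.15% relative to the set (5.67% higher, 2.48% lower). Unadjusted p was under 0.05 for 0 and 1 members, and DESeq2 called 1 and 0. Their median log2 difference from macrophage-gated cells was 0.00 on the TMM scale, with quartiles of -0.08 and 0.12, and they held 17.0% and 17.3% ribosomal protein UMIs in 41 and 29 cells.

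B-gated cells had the highest summed share, and some members parted from the macrophage mix. They numbered 24 and 13, too few for the test, so the values below are descriptions. B cells of the body cavities can carry CD11b. Ribosomal protein genes took 38.5% (95% exact binomial interval 38.3 to 38.8) and 35.3% (34.9 to 35.6) of their UMIs, 2.26-fold and 2.18-fold the macrophage share, at a median of 5578 and 5395 UMIs per cell. Rps27 reached 18004 and 15120 CPM and was the top member in both libraries. Relative to the set, Rps27l lay at -3.82 and -3.13 against macrophage-gated cells in libraries 1 and 2, and Rps27 at 1.39 and 1.15.

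Other members that parted in B-gated cells, chosen after their values were seen, include large-subunit genes. Rpl7l1, a relative of Rpl7, lay at -2.04 and -1.31 on 9 and 6 UMIs. Rpl10, which completes the large subunit late in its assembly, lay at -1.08 and -1.17, and Rpl7a at -1.14 and -0.99. Rpl13a lay at 0.90 and 0.56. These shifts had 1 direction in both libraries, while most members kept their place: 63 and 68 of 81 lay within 0.5 of the macrophage mix on the log2 scale. In the 42 T/NK-gated cells of library 2, with a share of 23.5%, 75 of 82 lay within 0.5, with Rps27l at -0.82, Rpl7l1 at -0.78 and Rpsa at 0.54.

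Within a class the mix was close between libraries. In macrophage-gated cells 78 of 82 members lay within 0.5 of each other on the log2 scale between libraries, in neutrophil-gated cells 78, in monocyte-gated cells 80 and in dendritic-gated cells 78. Some exceptions recurred, chosen after their values were seen. For Rpl35, a large-subunit protein, the log2 ratio of library 1 to library 2 was -0.70 in macrophage-gated, -0.58 in monocyte-gated, -0.60 in dendritic-gated and -0.61 in neutrophil-gated cells. For Rpl6l it was 0.89, 0.74, 0.51 and 0.53. Rpl3l, on few UMIs, did not keep a direction, at -1.16, 0.14, 1.45 and 0.41 (a log2 ratio of library 1 to library 2 in the same order). Rpl35 shares 99.3% of its 3′ stretches with other annotated genes, 3 of them in the count table.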

How the data were processed

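Single cells from pleural fluid were profiled in 2 libraries of the same labelled group. The authors deposited raw UMI counts per gene and cell barcode, made with Cell Ranger 3.0.1 on mm10, per the submitters' processing notes. Annotation release and counting strand: not given in the sources used here. Cells with at least 300 genes and at most 10% mitochondrial UMIs were kept. Classes were gated on marker UMIs per 10000 (at least 3 marker UMIs; thresholds: neutrophil 200, large resident macrophage and monocyte 50, dendritic, B, T/NK and macrophage C1q 10, monocytes with C1q under 2). The thresholds were set after marker counts had been seen. The dendritic gate was ignored in B- and T/NK-gated cells, whose genes it shares. No doublet caller was run. Cells in several gates were left out, but the monocyte gate did not count for this, nor C1q in large resident macrophage-gated cells.

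Counts were summed per class and library. The 10 sums of 5 classes entered 1 edgeR quasi-likelihood fit with library as a block, with macrophage-gated cells as reference and 4 residual degrees of freedom, once with TMM scaling and once with the members' summed UMIs as library size. Adjusted p under 0.05 was called. The block pairs classes of the same library. The labels do not say whether cells of both tags in library 2 shared a source or preparation. There neutrophil-gated and macrophage-gated cells lay mostly on opposite tag sides, and the block does not remove this. On the BC2 side the summed share was 13.8% in 32 neutrophil-gated and 16.2% in 522 macrophage-gated cells, with medians of 5.73% and 15.7%. On the BC3 side it was 5.08% in 1497 and 13.9% in 12, with medians of 4.86% and 13.7%. The part of the tag in the difference was not tested. B and T/NK contrasts were not run, since a library held under 20 such cells. Genes named are the 6 members with the largest rise and the 6 with the largest fall that passed relative to the ribosomal total with 1 sign in both libraries, a list of paralogues, stalk and other proteins, and Fau and Gnb2l1. Results for some of these genes are not reported here. Genes outside that rule are said to be so or come from the counted lists. Members and lists were chosen with earlier results of these data known. The fits were tested on simulated data. Python 3.11.15, numpy 2.4.6, scipy 1.17.1, pandas 2.3.3, matplotlib 3.10.9, R 4.3.3, edgeR 4.0.16 and DESeq2 1.42.0 were used. Binomial and Poisson intervals are exact at 95%. Alternatives covered normalization, tool, filters, gates, depth, tags, the block and each library.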

Additional observations from a re-analysis of the deposited data

How the results depend on the processing

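With 2 libraries, precision of the shares is set by the spread between them. Precision of the tests is set by how far class differences disagree between them. The B, T/NK and large resident macrophage classes hold few cells. Of 30 single-gene calls, 268 alternatives kept the call and 42 lost it, 24 of these with library 2 limited to its BC2 side, and none reversed. Leaving out 1 library gave shares of 16.19% to 17.06% (macrophage), 17.05% to 17.26% (large resident macrophage), 15.48% to 17.86% (monocyte), 18.13% to 22.01% (dendritic), 5.634% to 7.247% (neutrophil), 35.29% to 38.54% (B) and 23.52% to 29.37% (T/NK), and no test is left for counts of calls. The large resident macrophage share was 17.68% with gates doubled, 16.87% on the BC2 side (with and without large neutrophil-gated cells) and 17.43% with mitochondrial UMIs out of the total. The neutrophil share was 10.51% on the BC2 side and 5.151% without cells over 5000 UMIs, the B share 39.66% on the BC2 side in both forms, and the T/NK share 35.96% with gates doubled and 36.43% without the 5% of cells with the most UMIs. Both alternatives that leave out cells over 5000 UMIs were chosen after seeing the data.

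Dendritic calls on the TMM scale (9) became 32 with DESeq2, 16 with cells of at least 2000 UMIs, 5 with no low-count filter, 5 without the top 5% of cells, 3 with gates doubled and 3 without large neutrophil-gated cells. Relative to the set (3) they became 6 with DESeq2, 5 with cells of at least 2000 UMIs and 1 with gates doubled. Monocyte calls (0 on both scales) became 1 with gates doubled, with no filter and without the top 5%, and 2 (TMM) and 1 (relative to the set) on the BC2 side without large neutrophil-gated cells. DESeq2 called 1 large resident macrophage member on the TMM scale. Neutrophil calls fell to 0 on the BC2 side on both scales, where 566 (TMM) and 684 (relative to the set) of all 9155 genes were called. With no replicate block, dendritic calls were 1 (TMM) and 0 (relative to the set), and neutrophil calls 3 higher and 61 lower (TMM) and 6 higher and 21 lower (relative to the set). Members that were not called changed sign in the neutrophil contrast relative to the set: Rpl7 was 0.10 (BC2 side without large cells), 0.033 (BC2 side), 0.014 (at least 2000 UMIs) and 0.15 (TMM over members), Rpl7l1 0.085 (BC2 side), 0.18 (at least 2000 UMIs) and 0.15 (TMM over members), and Rpl38 0.10 (TMM over members). The cause of these changes was not tested. Dendritic and large resident macrophage contrasts were not run on the BC2 side, where each class has 18 cells.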
